A study of Mus musculus with 18 samples.

Results

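The Hox genes of the mouse were followed through the passage of stem cells from primed to naive pluripotency. Every gene symbol of the deposited count table that consists of Hox, a cluster letter from a to d and a number was taken. This gave 39 genes among the 25239 symbols of the table, 11 in the Hoxa cluster, 10 in Hoxb, 9 in Hoxc and 9 in Hoxd. RNA had been sequenced from 18 libraries in 6 groups of 3. D3, D5 and D8 were labelled as transient cells on days 3, 5 and 8 after the start. The rES were labelled as naive stem cells and came at the end of the course. ESC were mouse embryonic stem cells set beside it. EpiSC, epiblast stem cells labelled as primed, were the start, day 0. The source of all groups was given as mouse embryo, with no transgene, treatment, strain, line or growth medium named in the labels. The labels do not say whether the 3 libraries of a group came from separate cultures, so p-values measure the spread between these libraries, which may be technical.

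Hox genes encode homeodomain transcription factors that give cells of the embryo their position along the head-to-tail axis. In mammals they lie in clusters, and within a cluster genes of low number act in the hindbrain and neck, genes of middle number in the trunk and genes of high number in the lumbar, sacral and tail region, the limbs and the urogenital tract. In pluripotent cells the clusters are textbook targets of Polycomb repression, and caudal-type (Cdx) factors, WNT and FGF signals and retinoic acid are known activators.

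On GRCm38, the assembly also called mm10, with GENCODE vM21 gene models, the Hoxa genes lie on chromosome 6 on the minus strand. The Hoxb genes spanned chr11:96194316-96368256, the Hoxc genes chr15:102921103-103036852 and the Hoxd genes chr2:74668310-74765142, all on the plus strand. The high-number genes lie at the start of the plus-strand clusters. Neighbours are close enough to share exons. Of the 39 members, 9 shared exon bases with another gene on the same strand and 10 with a gene on the opposite strand. The largest shares were those of Hoxd3, with 62.3% of its exon bases, and Hoxd4, with 52.3%, which share exons with each other, and of Hoxb3, with 52.9% shared with the antisense gene Hoxb3os. The library kit marks strand, but the setting used in counting is not given in the sources used here. Reads of such pairs may have been split or added up.

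The sequences that follow lie just before the annotated starts of 3 members with different courses, Hoxb8, which was high at D3 and low in the other groups, Hoxd9, the most abundant member per length at D3, and Hoxd13, a member of the last position that was detected in EpiSC too. Capitals mark the caudal-type hexamers TTTATG and TTTATA and their reverse complements, the letters bound by Cdx proteins. The hexamer TTTATA also spells a TATA box on the opposite strand, so the same letters can be both.
Hoxb8, chr11:96281655-96281904, plus strand, RefSeq on GRCm38.p6: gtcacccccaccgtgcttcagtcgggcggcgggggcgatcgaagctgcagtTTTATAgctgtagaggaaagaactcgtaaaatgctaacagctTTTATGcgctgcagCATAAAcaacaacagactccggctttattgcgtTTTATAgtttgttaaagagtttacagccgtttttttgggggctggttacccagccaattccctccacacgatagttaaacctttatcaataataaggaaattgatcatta
Hoxd9, chr2:74697513-74697726, plus strand, RefSeq on GRCm38.p6: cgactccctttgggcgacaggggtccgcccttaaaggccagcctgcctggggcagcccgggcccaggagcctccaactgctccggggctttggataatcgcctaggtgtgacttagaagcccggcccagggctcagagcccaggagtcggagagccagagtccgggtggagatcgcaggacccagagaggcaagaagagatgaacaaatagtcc
Hoxd13, chr2:74667975-74668224, plus strand, RefSeq on GRCm38.p6: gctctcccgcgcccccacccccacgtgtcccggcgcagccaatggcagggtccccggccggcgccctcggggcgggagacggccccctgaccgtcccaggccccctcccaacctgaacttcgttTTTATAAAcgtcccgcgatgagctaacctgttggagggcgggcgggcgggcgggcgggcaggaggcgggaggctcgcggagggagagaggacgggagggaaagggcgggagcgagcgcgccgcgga
The Hoxb8 stretch held 4 such matches and 12 CpG dinucleotides, the Hoxd9 stretch no match and 10 CpG, and the Hoxd13 stretch 31 CpG and a single run that reads as the hexamer on both strands. RefSeq windows of 300 bases were found for 22 of the 39 members, 24 windows in all. Of these 24 windows 29.2% held TTTATG or TTTATA on either strand, against 22.8% of all 32851 windows. The retinoic acid receptor half-site AGGTCA stood in 29.2% of the Hox windows, against 16.3% of all, and the Pbx-Hox motif TGATNNAT in 16.7%, against 8.85%. Hox windows held a median of 14.5 CpG, against 7 over all windows. These matches describe letters and were not tested as binding sites.

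Libraries held 58362230 to 101607352 counts, with D8 replicate 2 the deepest, and libraries of one group correlated at 0.974 to 0.985. Levels are CPM, the counts relative to library size with TMM scaling. Where genes are ranked per length, CPM per kilobase (kb) of exon is used. Other CPM values of different genes are not corrected for length. A gene was taken as detected in a group when each of its 3 libraries held at least 12 counts, which is 0.122 CPM in D8 replicate 2 and 0.170 to 0.202 CPM in the other libraries. All 39 members entered the tests among 17545 genes, several of them only through the group in which they were high. Marker genes of pluripotency went with the labels. The naive list of 8 genes summed to 4399 to 4467 CPM in rES, 4463 to 4511 CPM in ESC and 58.9 to 65.5 CPM in EpiSC, and the primed list of 8 genes to 234 to 248 CPM in rES, 159 to 166 CPM in ESC and 2054 to 2240 CPM in EpiSC.

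The Hox genes were almost silent in EpiSC, were on nearly throughout the clusters at D3, were mostly low at D5, and in rES and ESC were present again as a different selection. Of the 39 members 4 were detected in EpiSC, 37 at D3, 18 at D5, 23 at D8, 28 in rES and 29 in ESC. No library held a count for 22 members in EpiSC, for 3 at D5 and for 2 in ESC, while every member had some count at D3, at D8 and in rES. The summed level of the 39 genes averaged 9.43 ± 1.77 CPM in EpiSC, 180.1 ± 6.52 CPM at D3, 34.4 ± 0.244 CPM at D5, 59.1 ± 8.36 CPM at D8, 128 ± 2.99 CPM in rES and 144 ± 8.05 CPM in ESC (SD, n = 3 each). The highest group mean was at D3 for 22 members, in ESC for 12 and in rES for 5. Since these are bulk samples, more cells that express a gene and more RNA per cell cannot be told apart.

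**Figure D1:**
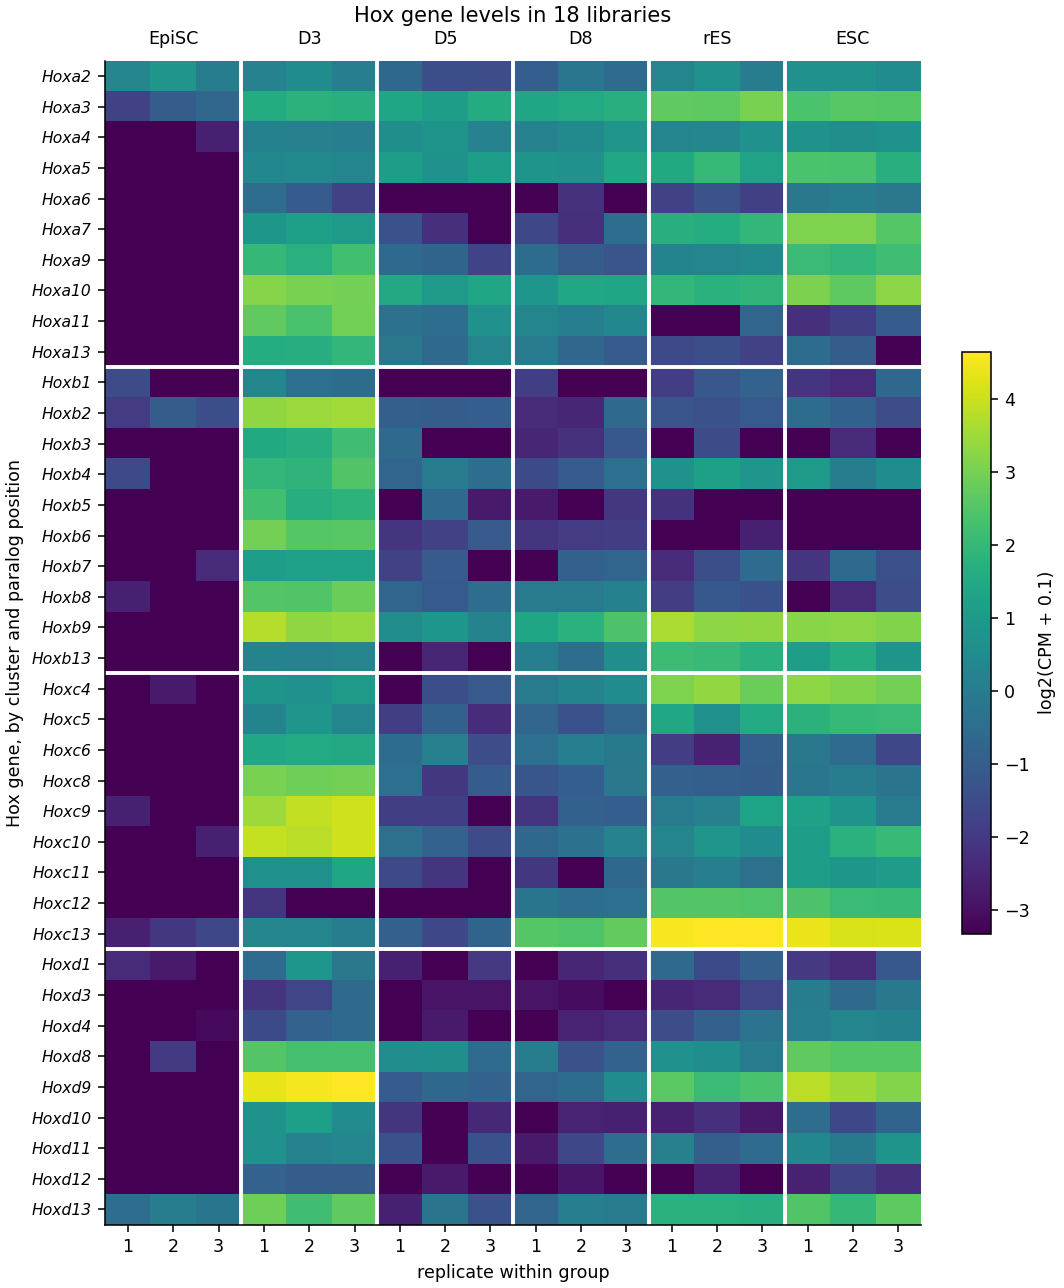
Level of 38 of the 39 Hox genes in each of the 18 libraries, as log2 of CPM plus a small constant (colour), with genes in rows by cluster and position and libraries in columns by group and replicate. EpiSC is mostly dark, with Hoxa2, Hoxa3 and Hoxd13 lighter, D3 is light in all 4 clusters, and rES and ESC share a light band at Hoxc12 and Hoxc13 that D3 lacks.

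The clusters took different courses. Hoxa genes, of which Hoxa2 and Hoxa3 were present from the start, summed to 7.84 ± 1.63 CPM in EpiSC, 44.6 ± 0.933 CPM at D3, 25.6 ± 1.47 CPM at D5, 38.5 ± 3.21 CPM at D8, 53.2 ± 3.90 CPM in rES and 58.7 ± 2.19 CPM in ESC. A member not reported individually here weighs heavily in the Hoxa sums. Their order between groups need not hold for the other Hoxa genes. Hoxb genes summed to 50.3 ± 3.93 CPM at D3 and to no more than 19.3 CPM in any library of another group. Hoxc genes summed to 46.0 ± 4.05 CPM at D3, 2.59 ± 0.611 CPM at D5, 45.4 ± 1.16 CPM in rES and 44.3 ± 2.78 CPM in ESC. Hoxd genes summed to 39.2 ± 1.37 CPM at D3, 2.66 ± 0.834 CPM at D8, 11.4 ± 1.29 CPM in rES and 26.5 ± 3.03 CPM in ESC. So D3 and rES had like Hoxc sums, made up of different genes, as given further on, while the D3 libraries lay above all others in Hoxb and Hoxd.

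**Figure D2:**
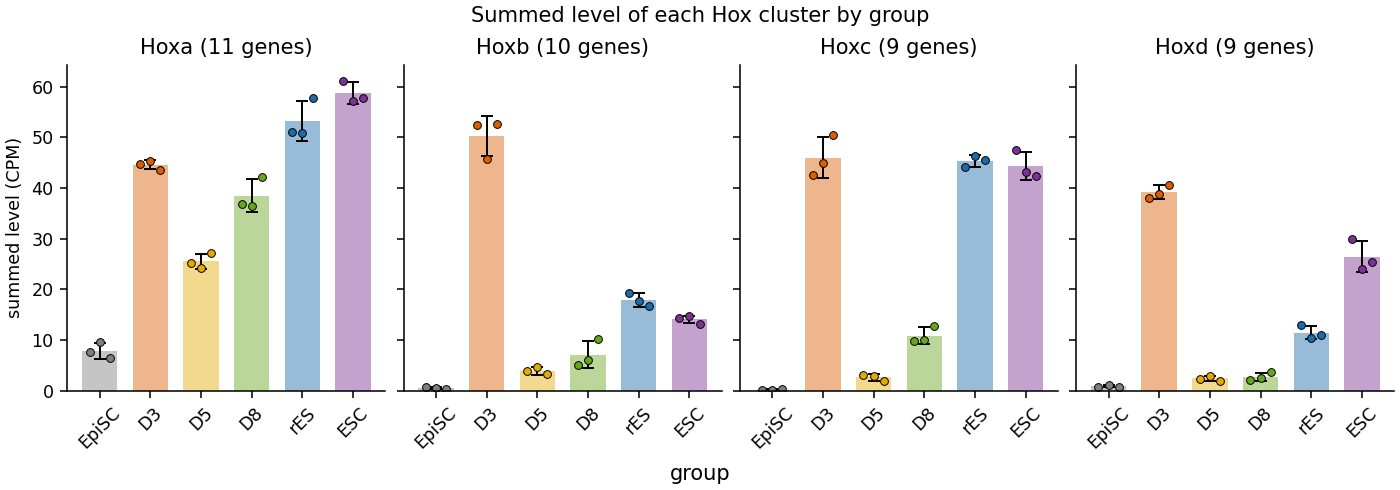
Summed CPM of the genes of each Hox cluster (vertical axis) in the 6 groups (horizontal axis); bars are means of 3 libraries, error bars SD, points libraries. Hoxb stands out at D3 with 50.3 CPM, whereas Hoxa reaches its highest sums in rES and ESC with 53.2 and 58.7 CPM. The Hoxa sums lean heavily on a member not reported individually here.

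By paralog position, the 12 genes of positions 1 to 4 summed to 42.0 ± 2.55 CPM at D3, 53.8 ± 2.76 CPM in rES, 46.1 ± 1.93 CPM in ESC and 8.36 ± 1.72 CPM in EpiSC. The member not reported individually here weighs heavily in these sums too, and their order need not hold without it. The 15 genes of positions 5 to 9, the trunk genes, summed to 91.1 ± 3.27 CPM at D3, 29.8 ± 2.22 CPM in rES, 50.9 ± 5.93 CPM in ESC and 0.127 ± 0.0325 CPM in EpiSC. The 12 genes of positions 10 to 13 summed to 47.0 ± 4.23 CPM at D3, 44.3 ± 0.531 CPM in rES, 46.6 ± 3.73 CPM in ESC and 0.942 ± 0.204 CPM in EpiSC. The trunk genes thus made the widest gap between D3 and the other groups. The posterior genes were about equal in sum in D3, rES and ESC, but the sums were made up differently. Position 10 summed to 25.5 CPM at D3, 5.05 CPM in rES and 11.6 CPM in ESC. Position 13 summed to 11.6 CPM at D3, 32.0 CPM in rES and 26.9 CPM in ESC.

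Hoxa2, Hoxa3 and Hoxd13 were among the 4 members detected in EpiSC. Hoxa2, a hindbrain and branchial arch gene, averaged 1.27 ± 0.377 CPM, Hoxa3, needed for thymus and parathyroid, 0.373 ± 0.164 CPM and Hoxd13, a gene of digits and genitalia, 0.775 ± 0.139 CPM. The 35 members that were not detected averaged at most 0.284 CPM, the mean of Hoxb2.

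At D3, the first time point after the start, 37 of 39 Hox genes rose against EpiSC and none fell, in edgeR's quasi-likelihood test with Benjamini-Hochberg adjustment and a threshold of 0.05. Over all 17545 genes 34.1% were called higher and 30.2% lower. The median log2 difference of the members was 5.40, or 3.98 with genes lacking counts in EpiSC set at the bound from 12 counts, and that of all genes 0.00. The 2 members not called were Hoxa2, with 1.14 CPM at D3 and 1.27 CPM in EpiSC, and Hoxb1, with 0.810 CPM at D3 and 0.0856 CPM in EpiSC (adjusted p = 0.748 and 0.0819). Hoxc12 was called on 8 counts in D3 replicate 1 alone and lay under the detection floor in both groups. Its call was lost without that library and without any single EpiSC library, and 36 or 37 members were higher when any one library of the 2 groups was left out.

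Hoxd9, a trunk-to-lumbar gene, had 20.4, 23.4 and 24.5 CPM at D3 and no count in any EpiSC library. It was at least 119.9-fold higher at D3 (adjusted p = 2.37e-11, edgeR quasi-likelihood). Per length it was the most abundant Hox gene of D3, with 10.7 CPM per kb, ahead of Hoxc10 with 8.05 CPM per kb. Hoxc10, a gene of the lumbar region and hindlimb, had 15.3, 14.0 and 16.8 CPM at D3, against 0, 0 and 0.0623 CPM in EpiSC. Hoxc9 had 11.0, 14.9 and 16.6 CPM at D3, against 0.0642, 0 and 0 CPM in EpiSC. For both genes every D3 library lay far above every EpiSC library (adjusted p = 2.47e-10 for Hoxc10 and 5.18e-08 for Hoxc9, edgeR quasi-likelihood). Hoxb9, which acts in the thorax and mammary gland, had 13.4, 9.96 and 10.6 CPM at D3 and no count in EpiSC, at least 59.6-fold higher. Hoxb2, a gene of the facial nerve region of the hindbrain, had 10.05, 10.97 and 11.62 CPM at D3, against 0.161, 0.412 and 0.280 CPM in EpiSC. It was 5.11 ± 0.55 higher on the log2 scale (SE, adjusted p = 2.13e-07, edgeR quasi-likelihood). Hoxb3os, the antisense gene that shares 27.3% of the exon bases of Hoxb2, averaged 0.402 CPM at D3 and had no count in EpiSC.

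A second tier of D3 genes came from the middle and the end of the clusters. Hoxa10, a gene of the uterus and lumbar vertebrae, had 9.13, 8.18 and 7.85 CPM at D3 and Hoxc8, a thoracic gene, 8.20, 7.25 and 7.83 CPM. Hoxb6 had 7.78, 5.75 and 5.87 CPM at D3 and Hoxa11, which patterns kidney, forearm and uterus, 6.36, 5.05 and 7.70 CPM. None of these 4 had a count in any EpiSC library, and their D3 levels were at least 44.2-fold, 40.9-fold, 34.1-fold and 33.5-fold higher in the order given. Hoxb8, known from haematopoiesis and microglia, had 5.59, 5.48 and 7.11 CPM at D3, against 0.0642, 0 and 0 CPM in EpiSC. Hoxd13 had 7.36, 4.56 and 6.47 CPM at D3, against 0.642, 0.919 and 0.763 CPM in EpiSC, and Hoxd8 had 5.59, 4.88 and 4.78 CPM, against 0, 0.158 and 0 CPM. In each of these the 3 D3 libraries lay above the 3 EpiSC libraries. Hoxa11 shares 35.0% of its exon bases with the antisense gene Hoxa11os, which averaged 2.12 CPM at D3 and had no count in EpiSC.

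Hoxa3, already detected in EpiSC, rose as well. It had 2.87, 3.40 and 3.12 CPM at D3, against 0.193, 0.412 and 0.514 CPM in EpiSC. The genes at the posterior ends of Hoxb and Hoxc were low at D3, although Hoxb13 and Hoxc13 were called higher than in EpiSC. Hoxb13 had no count in EpiSC and Hoxc13 averaged 0.147 ± 0.0848 CPM there. Hoxb13, a gene of tail and prostate, averaged 1.11 ± 0.0349 CPM, Hoxc13, a gene of hair and nails, 1.07 ± 0.113 CPM and Hoxc12 0.0435 ± 0.0753 CPM at D3. Hoxa13 and Hoxd13, of the same position, averaged 3.27 ± 0.479 and 6.13 ± 1.43 CPM.

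Markers of other cell types moved with the Hox genes at D3. All 11 tested genes of the trophoblast list were higher at D3 than in EpiSC, and the list of 12 summed to 2551 to 2952 CPM at D3, against 124 to 159 CPM in EpiSC, with Prl3d1 at 0 in both and Cdx2 at 0 in EpiSC. Of the 12 genes for extraembryonic mesoderm, allantois and amnion 11 were higher and 1 lower, with sums of 646 to 716 CPM at D3, against 47.1 to 58.1 CPM in EpiSC, where Wnt6 and Vcam1 were at 0. Of the 13 fibroblast and mesenchyme genes 12 were higher, with 627 to 804 CPM at D3, against 44.3 to 62.2 CPM in EpiSC. The posterior mesoderm and primitive streak list summed to 53.7 to 62.1 CPM at D3, against 11.7 to 14.6 CPM in EpiSC. Msgn1, Mesp1 and Cdx4 were at 0 at D3 and Tbx6 lay under the detection floor. Much of this D3 sum was Evx1 and Cdx1, given further on. The haematopoietic list summed to 73.8 to 79.1 CPM at D3, against 19.3 to 23.4 CPM in EpiSC, and the primitive and visceral endoderm list to 30.02 to 31.13 CPM, with Ttr at 0, against 6.99 to 8.12 CPM. The neural sum was lower, with 105 to 138 CPM at D3, against 412 to 498 CPM in EpiSC. Of its 6 tested genes 2 were called higher and 4 lower. Called higher were 4 of 8 tested posterior mesoderm, 7 of 10 haematopoietic and 6 of 7 endoderm genes, with none lower. Over all genes 34.1% were called higher and 30.2% lower. The part of these cell types in the Hox levels was not tested.

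**Figure D3:**
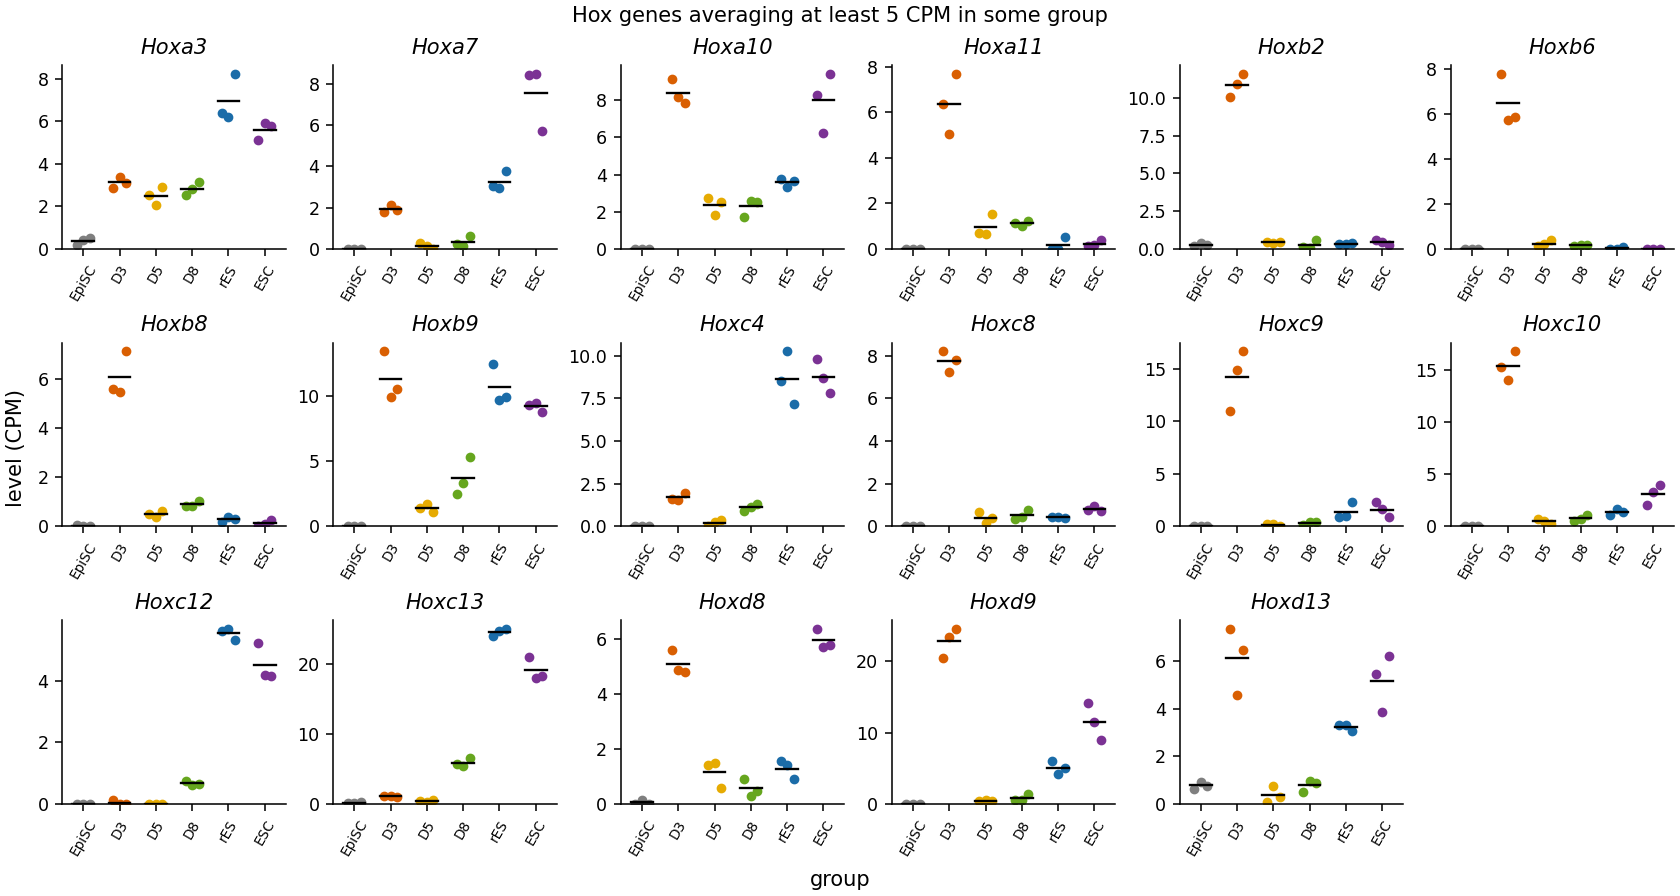
Level in CPM (vertical axis, its own scale per gene) of 17 Hox genes that averaged at least 5 CPM in some group, in the 6 groups (horizontal axis); points are libraries and bars the mean of 3. Hoxb2, Hoxb6, Hoxb8, Hoxc8, Hoxc9 and Hoxc10 stand far higher at D3 than elsewhere, Hoxb9 and Hoxd9 at D3 and again in rES and ESC, and Hoxc12 and Hoxc13 from D8 on.

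At D5, 35 of 39 members fell against D3 and none rose, where 29.6% of all genes were called lower and 29.9% higher. The median log2 difference of the members was -3.29 and that of all genes 0.00. Hoxa3, Hoxa4 and Hoxa5, neighbours in the Hoxa cluster, were among the 4 members that were not called. Hoxa3 had 2.53, 2.06 and 2.90 CPM at D5, against 2.87, 3.40 and 3.12 CPM at D3, with only the highest D5 library inside the D3 range. Hoxa4 averaged 1.40 ± 0.302 CPM at D5 and 1.00 ± 0.0448 CPM at D3, and Hoxa5, a gene of lung and neck vertebrae, 1.91 ± 0.258 CPM at D5 and 1.22 ± 0.0655 CPM at D3 (adjusted p = 0.392 and 0.0814, edgeR quasi-likelihood). Hoxa2, which lies next to Hoxa3, fell to 0.364 ± 0.157 CPM at D5, against 1.14 ± 0.200 CPM at D3 (adjusted p = 0.00239, edgeR quasi-likelihood).

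Hoxc9 fell furthest on the log2 scale, by 6.56 ± 0.71, with 0.176, 0.180 and 0 CPM at D5 (SE, adjusted p = 2.98e-07, edgeR quasi-likelihood). Hoxd9 had 0.401, 0.539 and 0.472 CPM at D5 and Hoxc10 0.674, 0.474 and 0.253 CPM, with falls of 5.51 ± 0.33 and 4.95 ± 0.43 on the log2 scale. Every D5 library of these 3 genes lay far below every D3 library. Hoxb2 had 0.433, 0.408 and 0.422 CPM, Hoxb6 0.128, 0.196 and 0.371 CPM and Hoxc8 0.658, 0.147 and 0.405 CPM at D5. The fall was smaller for Hoxa10, with 2.71, 1.83 and 2.50 CPM at D5, and Hoxb9, with 1.41, 1.71 and 1.10 CPM. Hoxa11 averaged 0.959 ± 0.513, Hoxd8 1.15 ± 0.488, Hoxb8 0.504 ± 0.124 and Hoxd13 0.368 ± 0.340 CPM at D5. The call of Hoxc12, with no count at D5, rests again on the 8 counts of D3 replicate 1 and was lost without any single D5 library.

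The sums of the marker lists of other cell types did not all fall with the Hox genes. The trophoblast list summed to 3305 to 3522 CPM at D5, against 2551 to 2952 CPM at D3, and the fibroblast list to 866 to 951 CPM, against 627 to 804 CPM. The haematopoietic list summed to 187 to 216 CPM at D5, against 73.8 to 79.1 CPM at D3. The extraembryonic mesoderm list summed to 238 to 253 CPM at D5, against 646 to 716 CPM at D3. The posterior mesoderm list summed to 4.57 to 5.02 CPM at D5, against 53.7 to 62.1 CPM at D3. Of its genes T, Msgn1, Mesp1 and Cdx4 were at 0 at D5, and much of its D3 sum was Evx1 and Cdx1. Of the 11 tested trophoblast genes 4 were called higher and 5 lower at D5 than at D3, and of 13 fibroblast genes 5 and 6. Of 10 haematopoietic genes 5 were called higher and 3 lower, and of 12 extraembryonic mesoderm genes 2 and 6. None of 8 tested posterior mesoderm genes was called higher and 5 were called lower. Over all genes 29.9% were called higher and 29.6% lower. The part of these cell types in the fall was not tested.

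Set against EpiSC, D5 still had 27 members higher and 1, Hoxa2, lower, where 37.7% of all genes were called higher and 34.3% lower. The median log2 difference was 2.64, or 1.73 over genes with bounds, and 0.02 over all genes. Many of these levels were low. Some calls leaned on 1 or 2 libraries. In D5 replicates 1, 2 and 3 Hoxb3 had 36, 0 and 0 counts, Hoxb5 0, 34 and 3 counts and Hoxa7 19, 7 and 0 counts. Of the Hoxd genes only Hoxd8 and Hoxd9 were detected at D5. With D5 and EpiSC fitted alone the filter on low counts kept only 19 members, of which 15 were called higher and 1 lower, where 40.3% of the 15456 genes of that fit were called higher and 39.7% lower.

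By D8 a few members were higher than at D5, a smaller share than that of all genes. Against D5, 6 members rose and none fell, where 25.1% of all genes were called higher and 22.0% lower, with a median log2 difference of 0.50 for the members and 0.05 for all genes. Among the 6 were Hoxc4 at one end of Hoxc, Hoxc12 and Hoxc13 at the other, and Hoxb9 and Hoxb13 at the posterior end of Hoxb. Hoxc13 had 5.78, 5.38 and 6.62 CPM at D8, against 0.449, 0.229 and 0.489 CPM at D5, 3.83 ± 0.24 higher on the log2 scale (SE, adjusted p = 1.22e-09, edgeR quasi-likelihood). Hoxc12 had 0.749, 0.631 and 0.660 CPM at D8 and no count at D5, at least 3.45-fold higher, and Hoxb13 averaged 1.02 ± 0.400 CPM at D8 and 0.0272 ± 0.0471 CPM at D5. Every D8 library of these 3 genes lay above every D5 library. Hoxb9 had 2.51, 3.32 and 5.31 CPM at D8, against 1.41, 1.71 and 1.10 CPM at D5. Hoxc4 had 0.895, 1.11 and 1.34 CPM at D8, against 0, 0.278 and 0.371 CPM at D5. DESeq2 called 10 members higher, and without D8 replicate 1, 9 were called higher and 1 lower.

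Marker lists moved at this step too. The naive list summed to 963 to 1833 CPM at D8, against 281 to 366 CPM at D5, and the posterior mesoderm list to 22.4 to 46.4 CPM, against 4.57 to 5.02 CPM, with Fgf8 at 0 at D8. Most of the posterior mesoderm sum at D8 was Cdx1, given further on. The endoderm list summed to 68.7 to 85.4 CPM at D8, against 34.96 to 41.1 CPM at D5, the fibroblast list to 1077 to 1778 CPM, against 866 to 951 CPM, and the neural list to 65.1 to 82.1 CPM, against 33.3 to 38.3 CPM. The haematopoietic list summed to 47.4 to 77.9 CPM at D8, against 187 to 216 CPM at D5. With ranges that overlapped, the trophoblast list summed to 2538 to 3315 CPM at D8, against 3305 to 3522 CPM at D5. Likewise with overlap, the extraembryonic mesoderm list summed to 205 to 315 CPM at D8, against 238 to 253 CPM at D5. The part of all these cell types in the rise of the 6 members was not tested.

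The other large members of D3 stayed low at D8. Hoxd9 had 0.505, 0.611 and 1.37 CPM, Hoxc10 0.553, 0.682 and 1.05 CPM and Hoxc9 0.130, 0.458 and 0.424 CPM. Hoxb2 had 0.0977, 0.0814 and 0.581 CPM and Hoxc8 0.342, 0.417 and 0.786 CPM. Replicate 3 was the highest D8 library for most of these genes and for the summed Hox level, 68.7 CPM against 53.8 and 54.7 CPM in replicates 1 and 2, and in that group the naive list also ran widest, with 963 to 1833 CPM. Against EpiSC, 30 members were higher at D8 and 1, Hoxa2, lower, where 42.4% of all genes were called higher and 34.5% lower. The median log2 difference was 3.04, or 2.12 over genes with bounds, and 0.18 over all genes.

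In rES 32 of 39 members were higher than in EpiSC and none lower, where 31.9% of all genes were called higher and 37.5% lower. The same number, 32, was higher in ESC than in EpiSC with none lower, where 31.2% of all genes were called higher and 36.1% lower. Both comparisons share the EpiSC libraries. The median log2 difference was 3.91 for rES and 4.78 for ESC, or 3.72 and 3.56 over genes with bounds, and -0.09 and -0.07 over all genes. Members not called in rES were Hoxa2, Hoxb1, Hoxb2, Hoxb3, Hoxb5, Hoxb6 and Hoxd12, and in ESC Hoxa2, Hoxb1, Hoxb2, Hoxb3, Hoxb5, Hoxb6 and Hoxd1. Of these 7, 5 were Hoxb genes in each case. The filter on low counts kept 30 members with rES and EpiSC fitted alone, and 29 with ESC and EpiSC fitted alone. Some calls in both comparisons thus concern members kept through another group. The rES call of Hoxa11 rests on replicate 3, with 0.505 CPM against 0 CPM in the other two, and the ESC call of Hoxb8 was lost without ESC replicate 3, EpiSC replicate 2 or EpiSC replicate 3 (adjusted p = 0.392, 0.123 and 0.124, edgeR quasi-likelihood).

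Hoxc13, at the posterior end of its cluster, was among the most abundant members per length in rES and ESC, with 9.99 CPM per kb in rES and 7.79 CPM per kb in ESC. Hoxc13 had 24.0, 24.8 and 25.0 CPM in rES and 21.08, 18.05 and 18.37 CPM in ESC, against 0.0642, 0.143 and 0.234 CPM in EpiSC. It was 7.11 ± 0.28 higher in rES and 6.75 ± 0.28 higher in ESC than in EpiSC on the log2 scale (SE, adjusted p = 1.73e-13 and 3.61e-13, edgeR quasi-likelihood). Both groups lay above D8, with 5.93 CPM, and D3, with 1.07 CPM. Its neighbour Hoxc12 had 5.62, 5.69 and 5.34 CPM in rES and 5.22, 4.19 and 4.15 CPM in ESC and no count in EpiSC, at least 29.2-fold and 23.8-fold higher.

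From D8 to the naive state more members rose. In rES 18 members were higher than at D8 and 4 lower, where 32.7% of all genes were called higher and 38.4% lower, with a median log2 difference of 1.17 for the members and -0.09 for all genes. Hoxc4, a gene of the neck, had 8.50, 10.3 and 7.15 CPM in rES, against 0.895, 1.11 and 1.34 CPM at D8. Hoxb9 had 12.5, 9.68 and 9.94 CPM in rES, against 2.51, 3.32 and 5.31 CPM at D8, and Hoxd9 6.01, 4.26 and 5.02 CPM, against 0.505, 0.611 and 1.37 CPM. The rES libraries lay above the D8 libraries in all 3 genes (adjusted p = 2.49e-05, 3.60e-05 and 7.67e-07 in that order, edgeR quasi-likelihood). Hoxa7 had 3.07, 2.94 and 3.80 CPM in rES, against 0.228, 0.112 and 0.644 CPM at D8, Hoxa3 had 6.39, 6.22 and 8.25 CPM, against 2.52, 2.81 and 3.14 CPM, and Hoxd13 had 3.30, 3.30 and 3.08 CPM, against 0.505, 0.967 and 0.864 CPM. The 4 members that fell were Hoxa11, Hoxb6, Hoxb8 and Hoxc6, all of them genes with their highest level at D3. Hoxb8 averaged 0.281 ± 0.0965 CPM in rES and 0.909 ± 0.111 CPM at D8, and its call was lost without D8 replicate 3, rES replicate 1 or rES replicate 3 (adjusted p = 0.0599, 0.0970 and 0.0562). The trophoblast list summed to 187 to 193 CPM in rES, against 2538 to 3315 CPM at D8, and the fibroblast list to 34.1 to 37.5 CPM, against 1077 to 1778 CPM, with Twist2, Prrx1 and Dcn at 0 in rES. The posterior mesoderm list summed to 168 to 176 CPM in rES, against 22.4 to 46.4 CPM at D8. Most of both sums was Cdx1, given further on, and Tbx6, Msgn1 and Mesp1 lay under the detection floor in rES. Their part in the Hox differences was not tested.

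The selection in rES was not that of D3. In rES against D3, a comparison added after the data were seen, 7 members were higher and 18 lower, where 31.4% of all genes were called higher and 39.0% lower. The median log2 difference was -1.22 for the members and -0.13 for all genes, or -0.02 for all genes under another library scaling. Among those higher in rES were Hoxa3 and Hoxa5 in the anterior part of Hoxa, Hoxc4 at the anterior end of Hoxc, and Hoxb13, Hoxc12 and Hoxc13 at the posterior ends. Lower in rES were Hoxa9, Hoxa10, Hoxa11 and Hoxa13, Hoxb2, Hoxb3 and Hoxb5 to Hoxb8, Hoxc6, Hoxc8, Hoxc9 and Hoxc10, and Hoxd8, Hoxd9, Hoxd10 and Hoxd12. Hoxc13 was 4.48 ± 0.23 higher on the log2 scale and Hoxc10 3.43 ± 0.39 lower (SE, adjusted p = 6.72e-12 and 3.67e-07, edgeR quasi-likelihood), with Hoxc11 and Hoxc12 between them in the cluster. Hoxb6 had 0, 0 and 0.0612 CPM in rES, against 7.78, 5.75 and 5.87 CPM at D3. Hoxb9, from which only Hoxb7 and Hoxb8 separate it, had 12.5, 9.68 and 9.94 CPM in rES, against 13.4, 9.96 and 10.6 CPM at D3, and the difference was -0.08 ± 0.24 on the log2 scale (SE, adjusted p = 0.779, edgeR quasi-likelihood).

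**Figure D4:**
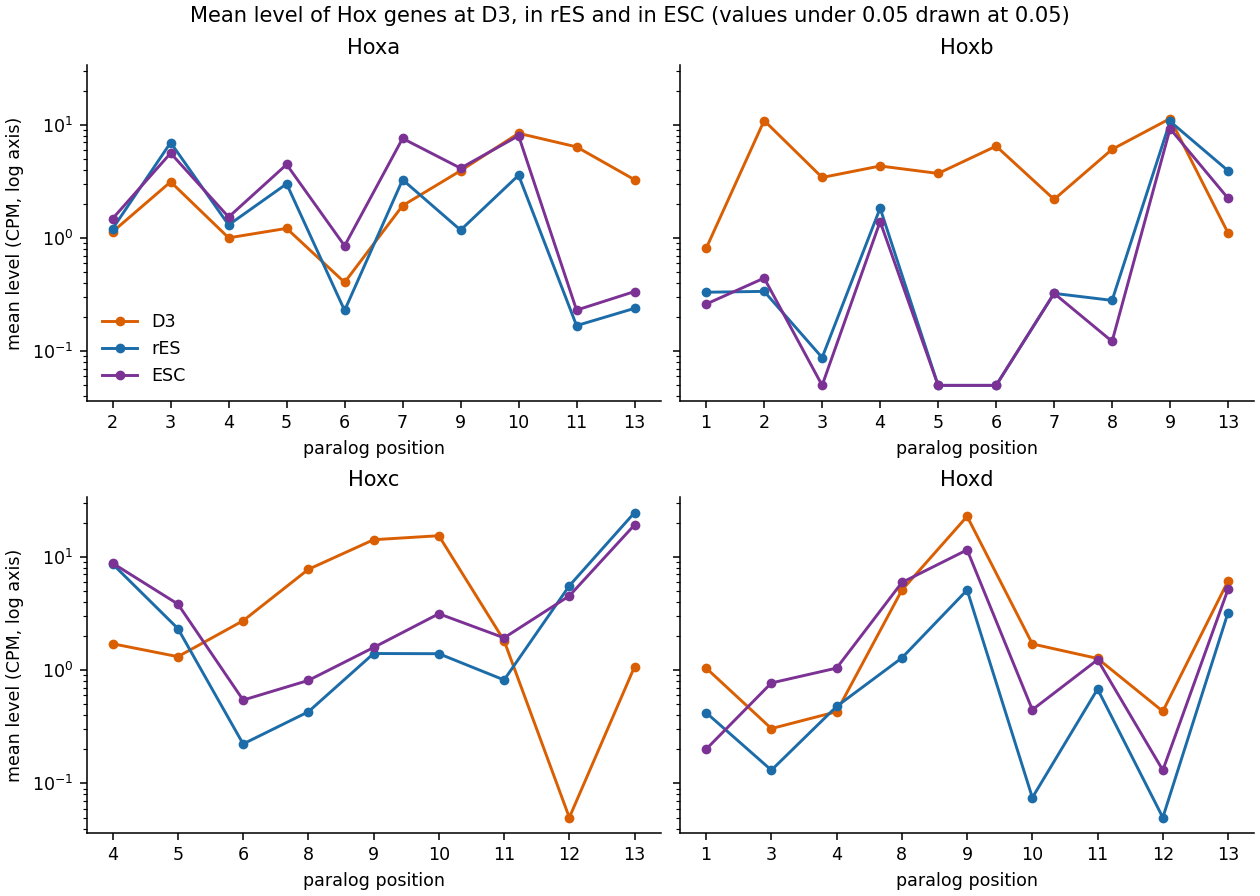
Mean level in CPM (vertical axis, log scale, low values drawn at the floor of the axis) of 38 Hox genes by paralog position (horizontal axis) at D3, in rES and in ESC, a panel for each cluster. The D3 line runs above the others through the middle of Hoxb and Hoxc and crosses below them at Hoxc12 and Hoxc13, and the rES and ESC lines lie close at Hoxc4 and Hoxb9 and apart at Hoxa9, Hoxa10, Hoxc10, Hoxd8 and Hoxd9.

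The gaps in the rES and ESC patterns were sharp. Within Hoxb, Hoxb4 averaged 1.83 ± 0.329 CPM in rES and 1.40 ± 0.484 CPM in ESC and Hoxb9 10.7 ± 1.54 and 9.22 ± 0.374 CPM. The 4 genes between them were low. Hoxb5 and Hoxb6 averaged 0.0424 and 0.0204 CPM in rES and had no count in ESC, and Hoxb7 and Hoxb8 averaged 0.324 and 0.281 CPM in rES and 0.324 and 0.122 CPM in ESC. Within Hoxc, Hoxc5, next to Hoxc4, averaged 2.33 ± 0.714 CPM in rES and 3.83 ± 0.419 CPM in ESC, and Hoxc6, next to it in turn, 0.223 ± 0.186 and 0.544 ± 0.298 CPM. At D3 Hoxc5 and Hoxc6 had averaged 1.32 ± 0.319 and 2.73 ± 0.133 CPM.

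Few Hox genes were called different between rES and ESC in the main fit, and the count depended on the fit, as given below. Of 39 members 1 was higher and 5 lower in rES, where 15.6% of all genes were called higher and 17.9% lower, and the median log2 difference was -0.39, against 0.00 over all genes. Lower in rES were Hoxa9, Hoxa10, Hoxc10, Hoxd8 and Hoxd9, genes of positions 8 to 10. Hoxd8 had 1.54, 1.40 and 0.903 CPM in rES, against 6.35, 5.70 and 5.76 CPM in ESC, and Hoxd9 6.01, 4.26 and 5.02 CPM, against 14.1, 11.4 and 9.01 CPM. Hoxa10 had 3.77, 3.35 and 3.63 CPM in rES, against 8.31, 6.26 and 9.42 CPM in ESC. In these 3 genes every rES library lay below every ESC library, with log2 differences of -2.19 ± 0.52, -1.17 ± 0.27 and -1.15 ± 0.22 (SE, adjusted p = 0.00368, 0.0033 and 0.000837, edgeR quasi-likelihood). Hoxa9, a gene of blood stem cells and the trunk, averaged 1.17 ± 0.0850 CPM in rES and 4.13 ± 0.431 CPM in ESC (adjusted p = 0.000898, edgeR quasi-likelihood).

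The call of Hoxc10 was weaker. It had 1.13, 1.70 and 1.36 CPM in rES, against 2.08, 3.34 and 4.01 CPM in ESC, and its adjusted p of 0.0219 rose above the threshold of 0.05 without rES replicate 1 or 3 or ESC replicate 2 or 3 (0.0553 to 0.0945). Hoxc4 and Hoxc13 were close in both groups, with log2 differences of -0.02 ± 0.44 and 0.36 ± 0.19 (SE, adjusted p = 1 and 0.169). Hoxa7 had 3.07, 2.94 and 3.80 CPM in rES, against 8.46, 8.50 and 5.74 CPM in ESC, without a call (adjusted p = 0.108). The count depended on the fit, as did that over all genes. With rES and ESC fitted alone 3 members were higher and 12 lower of 35 tested, where 25.9% of all genes in that fit were called higher and 25.8% lower. With counts divided by 4 there were 3 higher and 9 lower of 36 tested, where 19.6% of all genes were called higher and 21.4% lower. Of the cell type lists, the fibroblast list summed to 34.1 to 37.5 CPM in rES, against 152 to 194 CPM in ESC, where 7 of its 13 genes were called lower in rES and 1 higher. The posterior mesoderm list summed to 168 to 176 CPM in rES, against 215 to 223 CPM in ESC, and the trophoblast list to 187 to 193 CPM, against 137 to 145 CPM. Most of the posterior mesoderm sum was Cdx1 in both groups. Of the 11 tested trophoblast genes 4 were called higher and 3 lower in rES. Over all genes of the main fit 15.6% were called higher and 17.9% lower. Their part in the Hox differences was not tested.

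**Figure D5:**
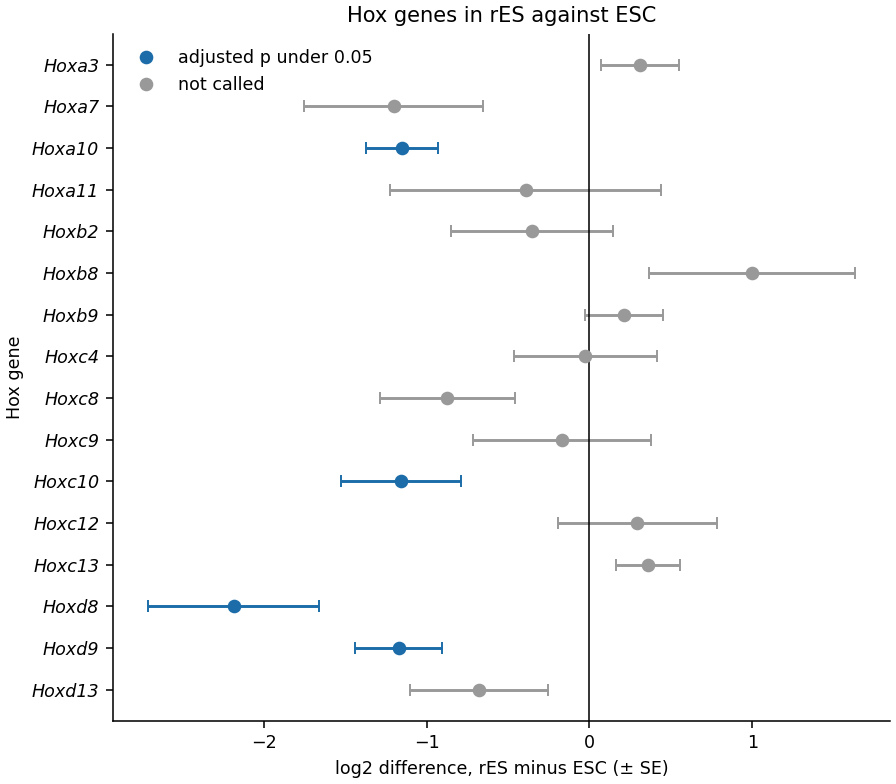
Log2 difference of rES minus ESC (horizontal axis, error bars SE from the fit over 3 libraries each) for 16 Hox genes that averaged at least 5 CPM in some group and lay above the detection floor in rES or ESC. Hoxd8, Hoxd9, Hoxc10 and Hoxa10 lie to the left of 0 and are called, and Hoxc4 and Hoxc13 are not called.

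The other 21 members never averaged 5 CPM. Hoxa5 and Hoxa9 in ESC, Hoxb4 at D3 and Hoxb13 in rES came nearest, with 4.45, 4.13, 4.32 and 3.92 CPM. Per length the lowest peaks were those of Hoxd12, with 0.171 CPM per kb at D3, Hoxd3, with 0.184 CPM per kb in ESC, Hoxd11, with 0.301 CPM per kb at D3, and Hoxb1, with 0.349 CPM per kb at D3. Hoxd3 and Hoxd4 share exons, so their levels are uncertain. Hoxd3 averaged 0.131 CPM in rES, against 0.771 CPM in ESC, and Hoxd4 0.478 CPM, against 1.04 CPM, without a call.

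Genes that work with the clusters were also measured. Of the 6 ParaHox and caudal genes, 2 were higher and 1 lower at D3 than in EpiSC, where 34.1% of all genes were called higher and 30.2% lower. Cdx2, a direct activator of Hox genes and a trophoblast factor, averaged 30.8 ± 2.27 CPM at D3, and at most 2.79 CPM in any other group. Cdx1, its relative, averaged 12.5 ± 0.97 CPM at D3, 2.41 ± 0.72 CPM at D5, 28.0 ± 13 CPM at D8, 157 ± 4.2 CPM in rES, 199 ± 3.2 CPM in ESC and 0.0208 CPM in EpiSC. Its difference between rES and ESC was not called (adjusted p = 0.258, edgeR quasi-likelihood), and it was higher at each other group than in EpiSC. Cdx4 averaged at most 0.406 CPM.

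The Even-skipped genes beside the clusters both rose at D3. Evx1, which lies beyond Hoxa13, averaged 19.4 ± 3.6 CPM at D3, against 0.0370 CPM in EpiSC, and at most 1.42 CPM in another group. Evx2, beyond Hoxd13, averaged 1.76 ± 0.38 CPM at D3 and had no count in any other library of the series. Of the 14 noncoding transcripts listed 9 could be tested, with 5 higher and 1 lower at D3 than in EpiSC, where 34.1% of all genes were called higher and 30.2% lower. Halr1, near the Hoxa cluster, followed the naive cells, with 7.67 ± 1.9 CPM in rES, 14.2 ± 0.94 CPM in ESC and no count at D3, and was the transcript that was lower at D3 than in EpiSC, where it averaged 0.260 CPM. Evx1os averaged 4.45 ± 0.39 CPM at D3, and at most 0.767 CPM in any other group.

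Of the 9 TALE cofactors, homeodomain proteins that bind DNA together with Hox proteins, 4 were higher and 4 lower at D3 than in EpiSC, and in rES 3 were higher and 5 lower. Over all genes 34.1% were called higher and 30.2% lower at D3, and 31.9% higher and 37.5% lower in rES. Meis2 averaged 35.7 ± 2.3 CPM in rES, 29.3 ± 0.65 CPM at D3 and 7.22 ± 0.67 CPM in EpiSC. Of 15 tested signals of posterior growth, retinoid genes and mesoderm factors, 9 were higher and 2 lower at D3 than in EpiSC, beside the same shares of all genes. Wnt5a, a ligand of tail bud outgrowth, averaged 54.9 ± 1.2 CPM at D3, against 0.553 CPM in EpiSC, and Gdf11, a TGF-beta family ligand needed for posterior Hox patterning, 21.3 ± 2.9 CPM, against 1.70 CPM. The retinoic acid receptor gene Rarb averaged 11.8 ± 0.97 CPM at D3, against 0.700 CPM in EpiSC.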

How the data were processed

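The series holds 18 RNA-seq libraries of mouse cells in 6 groups of 3, grouped by the titles in the labels. Per the labels' protocols, ribosomal RNA was removed from total RNA by RNase H, the second cDNA strand was digested and paired reads were sequenced. HISAT2, Trim Galore, bcl2fastq and the build mm10 are named in the submitters' processing notes, without versions or roles. The authors deposited 1 table of whole-number counts per gene symbol, not scaled between libraries. The sources used here name no counting program, annotation or strand setting. Low counts bunch at 4 and 8: a median of 157, 314.5 and 105.5 genes per library had counts of 3, 4 and 5, and 152.5, 163 and 109 genes had counts of 7, 8 and 9. A read pair may therefore have been entered more than once, so 12 counts stood for the floor, and intervals from it cover counting error only.

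Of 25239 genes, 17545 passed filterByExpr. A single edgeR fit (version 4.0.16, with limma 3.58.1 and R 4.3.3) covered all libraries, with TMM scaling and a prior count of 2, and tested by the quasi-likelihood F test with Benjamini-Hochberg adjustment over all genes at 0.05. SE is the absolute log2 difference over the square root of F. The common biological coefficient of variation was 0.167. DESeq2 1.42.0 was an alternative. The steps were tested on simulated data. Exon lengths came from GENCODE vM21, promoters from RefSeq, and sequences and figures were handled in Python 3.11.15 with pandas 2.3.3 and matplotlib 3.10.9.

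Counts and sums cover all 39 Hox symbols, and those averaging at least 5 CPM in some group are given by library, except that 1 member and 1 cofactor are not reported individually here. Of each list of related genes, members of at least 5 CPM may be named. Others with lower means were named after their values were seen. The members and lists were chosen with earlier results of these data known. The alternatives were RLE scaling, no filter on low counts, DESeq2, the replicate block, counts divided by 4, the compared groups fitted alone, each library left out, and floors of 1 and 30 counts. Raw library totals and the comparison of rES with D3 were added after the data were seen.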

Additional observations from a re-analysis of the deposited data

How the results depend on the processing

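The counts of Hox genes called by edgeR's quasi-likelihood test moved by more than 1.5 times under few alternatives. For D5 against EpiSC 28 members were called, and 16 of the 19 still tested with the groups fitted alone. For rES against ESC 6 were called, 12 with counts divided by 4 and 15 with the groups fitted alone. For D8 against D5 6 were called and 10 with DESeq2. At D5 18 members were detected, and 10 with a floor of 30 counts. With each library left out in turn, the counts called ran at 36 to 37 for D3 against EpiSC, 27 to 30 for D5 against EpiSC, 27 to 32 for D8 against EpiSC, 29 to 32 for rES against EpiSC, 30 to 32 for ESC against EpiSC, 4 to 6 for rES against ESC, 29 to 33 for D5 against D3, 6 to 10 for D8 against D5, 20 to 22 for rES against D8 and 23 to 24 for rES against D3. The highest for D8 against D5, 10, came without D8 replicate 1. Members detected ran at 4 to 5 in EpiSC, 37 to 38 at D3, 19 to 21 at D5, 23 to 27 at D8, 28 to 31 in rES and 29 to 30 in ESC. Numbers shared between groups did not pair the libraries: the deviations of 45 same-numbered pairs correlated at a median of -0.000, from -0.0607 to 0.0533, with 0 over 0.1, and 7 of 18 libraries correlated best with their own number. With the replicate block the counts were 38, 26, 29, 31, 31, 5, 32, 6, 20 and 25, in the order above. Members that changed sign were not called to begin with. For Hoxd13 in D8 against EpiSC the log2 difference was -0.000953 with the replicate block and -0.00551 with raw totals. For Hoxc4 in rES against ESC it was 0.0104 with RLE scaling and with DESeq2, and 0.0032 with raw totals. For Hoxa10 in D8 against D5 it was 0.020 with RLE scaling and 0.022 with DESeq2. For Hoxb9 in rES against D3 it was 0.0321 with RLE scaling, 0.0322 with DESeq2 and 0.0313 with the groups fitted alone. With single libraries left out, log2 differences ran at -0.17 to 0.26 (Hoxd13) and -1.40 to 0.24 (Hoxb2) for D8 against EpiSC, and -0.0308 to 0.55 (Hoxb2) for rES against EpiSC. For rES against ESC they ran at -0.17 to 0.0938 (Hoxc4), -3.107 to 0.17 (Hoxa11, the lowest without rES replicate 3, where it was called lower) and -0.74 to 0.18 (Hoxc9). For D8 against D5 they ran at -0.19 to 0.12 (Hoxa10), -0.000419 to 0.73 (Hoxa11) and -0.0751 to 0.83 (Hoxc8), for rES against D8 at -0.0112 to 1.63 (Hoxb2) and -0.46 to 0.16 (Hoxc8), and for rES against D3 at -0.21 to 0.0577 (Hoxb9). Calls of low or close genes were lost under some settings, among them Hoxc12 for D3 against EpiSC, Hoxa11 for rES against EpiSC, Hoxc13 for D5 against EpiSC and Hoxa11 for rES against D8 with the groups fitted alone, and Hoxa10 (adjusted p = 0.0849 without D8 replicate 1) and Hoxc9 (0.0557 without rES replicate 3) for rES against D8. The cause was not tested. Some calls rest on few counts, with both groups under the floor of 12 counts: Hoxd10 was called higher at D5, at D8 and in rES than in EpiSC, Hoxb13 higher at D5 than in EpiSC, and Hoxc12 higher at D3 than in EpiSC and lower at D5 than at D3.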

Other observations

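Genes that flank the clusters were measured as well, and whether they differ from the Hox genes was not tested. Of the 15 tested genes of that list, 4 were higher and 7 lower at D3 than in EpiSC, where 34.1% of all genes were called higher and 30.2% lower, with a median log2 difference of -0.42 for the list. At D5 10 were higher and 3 lower than at D3, where 29.9% of all genes were called higher and 29.6% lower, with a median of 0.59. Skap2, beside the Hoxa cluster, averaged 35.4 ± 2.3 CPM in EpiSC, 41.5 ± 1.4 CPM at D3, 64.4 ± 3.9 CPM at D5, 75.1 ± 1.7 CPM at D8, 88.5 ± 2.8 CPM in rES and 113 ± 1.6 CPM in ESC. Jazf1, farther out on the other side of Hoxa, averaged 42.5 ± 4.2 CPM at D5 and 53.3 ± 12 CPM at D8, against 2.86 ± 0.18 CPM in EpiSC and 0.163 ± 0.13 CPM in rES. Gm53 averaged 10.9 ± 1.5 CPM in rES, 6.80 ± 0.17 CPM in ESC, 2.21 ± 0.86 CPM at D8 and at most 0.283 CPM in the other groups.

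Of the 17 Polycomb and Trithorax genes, which repress and activate Hox clusters in development, 5 were higher and 6 lower at D3 than in EpiSC, and 9 were higher and 3 lower in rES than at D8. Over all genes 34.1% were called higher and 30.2% lower at D3, and 32.7% higher and 38.4% lower in rES than at D8. Ezh2, the methyltransferase of Polycomb complex PRC2, averaged 128 ± 9.4 CPM at D3, 203 ± 1.0 CPM in rES and 207 ± 3.2 CPM in EpiSC. Suz12, its partner, averaged 181 ± 37 CPM at D3, 661 ± 13 CPM in rES and 185 ± 11 CPM in EpiSC. Bmi1, a subunit of complex PRC1, averaged 32.3 ± 3.1 CPM at D3, 54.4 ± 1.8 CPM in rES and 5.78 ± 1.1 CPM in EpiSC. These are RNA levels, and no histone mark was measured here.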
